A study of Mus musculus with 2 samples.

Results

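The MEF2 factors described here are the genes Mef2a, Mef2c and Mef2d, chosen by symbol; all 3 were found among the 27998 genes of the deposited table. MEF2 proteins are transcription factors that bind an AT-rich DNA element through a shared amino-terminal MADS domain, as homodimers and heterodimers. In endothelium they lie at the end of a kinase chain in which MEKK3 (gene Map3k3) acts on MEK5 (Map2k5), MEK5 on ERK5 (Mapk7), and ERK5 on MEF2 proteins, which then switch on Klf2 and Klf4, the transcription factors of flow-exposed vessels. Class IIa histone deacetylases hold MEF2 proteins in a repressed state until kinases export them from the nucleus, so that MEF2 activity can change with no change in MEF2 RNA. Mef2c is also required for heart and vessel formation in the mouse embryo.

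Single cells from C57BL/6J mouse embryos were profiled to compare blood-forming arterial endothelium with and without endothelial Mekk3. The control library came from embryos carrying Mekk3 fl/fl or Mekk3 fl/+, labelled embryonic day 9.5, and the mutant library from embryos carrying Mekk3 fl/- with Tie2Cre+, titled day 9.5 but with a stage label of day 9.7. Tie2Cre expresses the recombinase in endothelium and also in blood cells; the other mutant allele is a null carried by every cell, and no Cre is named for the control. Both libraries came from dorsal aorta, umbilical and vitelline arteries sorted as Ter119-, CD41lo/-, CD31+, CD144+ and ESAM+, with no statement of how many embryos were pooled. There was 1 library per group. No test was therefore possible, no difference has a replicate check, and every interval given is exact, at 95%, and reflects counting error alone.

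The control library held 6675 cells with a median of 7566 unique molecular identifiers (UMIs) and the mutant library 3242 cells with a median of 5647. The libraries shared 5 cell barcodes. Ddx3y, on the Y chromosome, had a UMI in 12.9% of control cells and in 0% of mutant cells, so sex differs between the libraries along with genotype. Cells were put in gates by detected markers, with no clustering. The endothelial gate, which asked for at least 4 of 12 endothelial markers, took 6275 control cells (94.0%) and 2942 mutant cells (90.7%). Of the genes behind the sort, Cdh5 (CD144) was found at 408 CPM (UMIs of the gene divided by all UMIs of the gate, times 1e6) in control and 296 CPM in mutant cells, Pecam1 (CD31) at 160 and 231 CPM, and Esam at 267 and 294 CPM, while Ptprc, a marker of blood cells, stood at 0.565 and 0.0970 CPM and Col1a1, of mesenchyme, at 0.428 and 0.145 CPM.

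On GRCm38 with GENCODE vM21, Mef2a (ENSMUSG00000030557) lies on chromosome 7 from 67231163 to 67372858 on the minus strand. Mef2c (ENSMUSG00000005583) lies on chromosome 13 from 83504034 to 83667080 and Mef2d (ENSMUSG00000001419) on chromosome 3 from 88142372 to 88172086, both on the plus strand. The counts are per gene, from a 3′ kit, and do not separate the 12, 31 and 7 annotated transcripts of the 3 genes. An exon of Mef2a overlaps Lysmd4 and an exon of Mef2d overlaps 1700113A16Rik, both on the other strand, and the strand setting of the counting is not given in the sources used here. These neighbours were scarce in the endothelial gate: Lysmd4 reached 1.39 CPM in control and 2.38 CPM in mutant cells, and 1700113A16Rik 1.90 and 2.91 CPM. The fourth paralog, Mef2b, had 0 UMIs in both libraries, so the exact upper limits in the endothelial gate were 0.0632 (control) and 0.179 CPM (mutant).

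The MEF2 binding element occurs beside the starts of some of these genes. Promoter windows of 300 bases, from 250 before to 50 after each RefSeq start (GRCm38.p6), were searched for the MEF2 consensus, which reads the same on both strands, so that 1 search covers both. The element was found in the windows of Mef2a and Klf2, which are shown as a family member with a match and, among the targets with one, the gene furthest lower in the mutant; capitals mark the match. The Mef2a window is chr7:67372809-67373108 on the minus strand, with the first base of the match 2 bases before the start. The Klf2 window is chr8:72318812-72319111 on the plus strand, with the match beginning 118 bases before the start.
Mef2a: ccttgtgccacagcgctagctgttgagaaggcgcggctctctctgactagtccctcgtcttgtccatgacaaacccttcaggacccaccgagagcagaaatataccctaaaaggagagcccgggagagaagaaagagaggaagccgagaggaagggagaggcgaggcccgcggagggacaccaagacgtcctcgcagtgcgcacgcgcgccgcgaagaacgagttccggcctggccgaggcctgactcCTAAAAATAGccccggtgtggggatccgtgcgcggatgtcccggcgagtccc
Klf2: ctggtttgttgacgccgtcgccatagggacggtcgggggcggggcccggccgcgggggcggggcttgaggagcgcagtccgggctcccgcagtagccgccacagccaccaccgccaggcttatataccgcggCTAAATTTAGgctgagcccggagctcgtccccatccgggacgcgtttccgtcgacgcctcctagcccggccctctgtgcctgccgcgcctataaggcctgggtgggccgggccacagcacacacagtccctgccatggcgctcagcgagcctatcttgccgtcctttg

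Other genes of the MEF2 pathway with a match were Jun, an AP-1 subunit, with CTATTTTTAG beginning 33 bases before the start, Hlx, a homeobox gene, with TTAAATTTAG beginning 23 bases before it, and Hdac5, a class IIa deacetylase, with CTATTTTTAG beginning 20 bases before it. In all, 5 of the 39 genes of the family and pathway lists that had a window held the consensus (12.8%), beside 118 of the 6622 measured genes that had a window (1.78%); over all 32851 windows the share was 3.19%. The 39 genes were not filtered by level, whereas the 6622 had a mean of at least 5 CPM in the endothelial gate, so these sets are unlike. The target list was drawn up from known MEF2 targets. The windows of Mef2c, Mef2d, Klf4 and Dll4 held no match, which says only that these letters are absent from these windows. Genes with and without a match had similar shares past 1.5-fold: of 118 such genes measured in the endothelial gate, 10.2% were past 1.5-fold higher and 18.6% past 1.5-fold lower in the mutant, and of 6504 genes with a window and no match 11.7% and 20.3%. A match is a description of sequence and not evidence of binding.

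RNA of all 3 MEF2 factors was present in the mutant endothelium at levels slightly above the control. Mef2c gave 14071 control and 6369 mutant UMIs in endothelial-gated cells, or 241 CPM (interval 237 to 245) and 309 CPM (301 to 316), a ratio of 1.28 (1.24 to 1.32). Mef2a, the most widely expressed member in adult tissues, had 7324 and 2908 UMIs, or 125 CPM (123 to 128) and 141 CPM (136 to 146), a ratio of 1.12 (1.08 to 1.17). Mef2d had 926 and 401 UMIs, or 15.9 CPM (14.9 to 16.9) and 19.4 CPM (17.6 to 21.4), a ratio of 1.23 (1.09 to 1.38).

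The counting intervals of the 2 libraries did not overlap for any of the 3 genes without thinning. For Mef2d this did not hold at equal depth. In cells thinned to 2500 UMIs before gating its ratio was 1.20, with an interval of 0.936 to 1.52. None of the 3 was past 1.5-fold, while 31.9% of the 8570 genes with a mean of at least 5 CPM were, 12% higher and 19.9% lower in the mutant. As a mean over cells, which gives shallow cells more weight, Mef2d was past it at 1.55. The median log2 ratio (mutant over control) of all these genes was -0.14, against 0.36 for Mef2c, 0.29 for Mef2d and 0.17 for Mef2a, so the members lay above that median. Leaving mitochondrial, ribosomal-protein and hemoglobin genes out of the totals raised every log2 ratio by 0.12 and put the median of all genes at -0.01. Among control cells with a Xist UMI and no Y-linked UMI (2647 endothelial-gated cells) set against all mutant cells, the Mef2a ratio was 1.08 and the Mef2c ratio 1.26; these control cells were picked for a Xist UMI and the mutant cells were not. Levels are compared within a gene here, since 3′ counts are not scaled to length.

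Klf2 and Klf4, the textbook targets of the MEF2 branch, stood far lower in the same mutant cells. Klf2 UMIs numbered 24573 and 2581, which is 421 and 125 CPM (ratio 0.297, interval 0.285 to 0.310). Klf4 UMIs numbered 3250 and 577, which is 55.7 and 28.0 CPM (ratio 0.502, 0.459 to 0.549). RNA of the factors and of these targets thus differed in opposite directions between the libraries, and protein or activity was not measured.

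The higher Mef2c level was found in arterial-gated cells, in venous-gated cells and in endothelial cells without a vessel call. It was not found in the small gate for smooth muscle genes. There Mef2c stood at 225 CPM (157 to 313) in 12 control cells and 127 CPM (71.2 to 210) in 16 mutant cells. Arterial-gated cells (at least 2 of 9 arterial markers, with more arterial than venous UMIs) numbered 1735 in the control and 968 in the mutant, venous-gated cells 3161 and 852, and endothelial cells without a vessel call 1367 and 1106. Arterial genes kept out of the gate (Hey2, Jag1, Cxcr4, Nrp1, Jag2 and Sema3g) summed to 614 CPM in arterial-gated and 196 CPM in venous-gated control cells, and to 420 and 195 CPM in the mutant. The check list for veins (Mmrn1, Stab1, Stab2, Flt4, Maf and Emb) separated the gates less, with 205 CPM in arterial-gated and 229 CPM in venous-gated control cells, and 247 and 326 CPM in the mutant. Venous-gated cells were also the deepest, with medians of 10011 and 9145 UMIs against 6366 and 5980 in arterial-gated cells.

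Mef2c stood at 233 CPM in control and 298 CPM in mutant arterial-gated cells, a ratio of 1.28 (1.21 to 1.35). In venous-gated cells it stood at 248 and 324 CPM, with a ratio of 1.30 (1.25 to 1.36). In cells without a vessel call it stood at 225 and 304 CPM, with a ratio of 1.35 (1.27 to 1.44). The 3 intervals overlapped one another, and in each gate the mutant level was above the control level by more than counting error. Within a library Mef2c was slightly lower in arterial-gated than in venous-gated cells, by a ratio of 0.939 (0.901 to 0.977) in the control and 0.920 (0.868 to 0.976) in the mutant.

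Mef2a differed little among vessel gates without thinning. It stood at 129 CPM in control and 148 CPM in mutant arterial-gated cells, a ratio of 1.15 (1.06 to 1.24). In venous-gated cells it stood at 126 and 138 CPM, with a ratio of 1.10 (1.03 to 1.17), and in cells without a vessel call at 118 and 135 CPM, with a ratio of 1.14 (1.04 to 1.25). Against control cells with a Xist UMI and no Y-linked UMI the last ratio turned to 0.998 (0.889 to 1.12), and the venous one was 1.07 (0.994 to 1.15). Without thinning, the arterial to venous ratio of Mef2a was 1.02 (0.965 to 1.08) in the control and 1.07 (0.980 to 1.17) in the mutant. No difference between these gates was detectable in those values. In cells thinned to 2500 UMIs before gating, the arterial ratio of mutant to control was 1.52 (1.24 to 1.86). The venous one was 1.54 (1.26 to 1.89), and that without a vessel call 1.15 (1.02 to 1.29). Arterial-gated cells then held 233 Mef2a UMIs in 780 control and 170 in 375 mutant cells. Venous-gated cells held 422 in 1191 and 127 in 232. No interval was taken between the thinned gates.

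Mef2d had the fewest UMIs and the widest intervals. It stood at 17.1 CPM in control and 22.5 CPM in mutant arterial-gated cells (236 and 152 UMIs), a ratio of 1.32 (1.07 to 1.62). In venous-gated cells it stood at 15.2 and 17.4 CPM (541 and 138 UMIs), with a ratio of 1.14 whose interval ran from 0.942 to 1.38. In cells without a vessel call it stood at 16.3 and 18.3 CPM, with a ratio of 1.12 (0.866 to 1.46). Differences of Mef2d outside the arterial gate were not detectable at this depth. With every cell thinned to 2500 UMIs before gating, the venous ratio turned to 0.885, from 58 control and 10 mutant UMIs. In each of these gates none of the 3 factors was past 1.5-fold by summed UMIs. In thinned cells Mef2a was past it in the arterial gate (1.52) and the venous gate (1.54) and Mef2d in the arterial gate (1.86), and as a mean over cells Mef2d was past it in the venous gate (1.63) and without a vessel call (1.69). Among all genes 34.7% were in arterial-gated cells (11.7% higher and 23.1% lower in the mutant), 31.0% in venous-gated cells (12% and 19.0%) and 34.1% in cells without a vessel call (13.2% and 20.9%). Over all cells, with no gate, the ratios were 1.13 for Mef2a, 1.26 for Mef2c and 1.22 for Mef2d, again with none past 1.5-fold, against 31.6% of genes (11.9% higher and 19.7% lower).

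**Figure D1:**
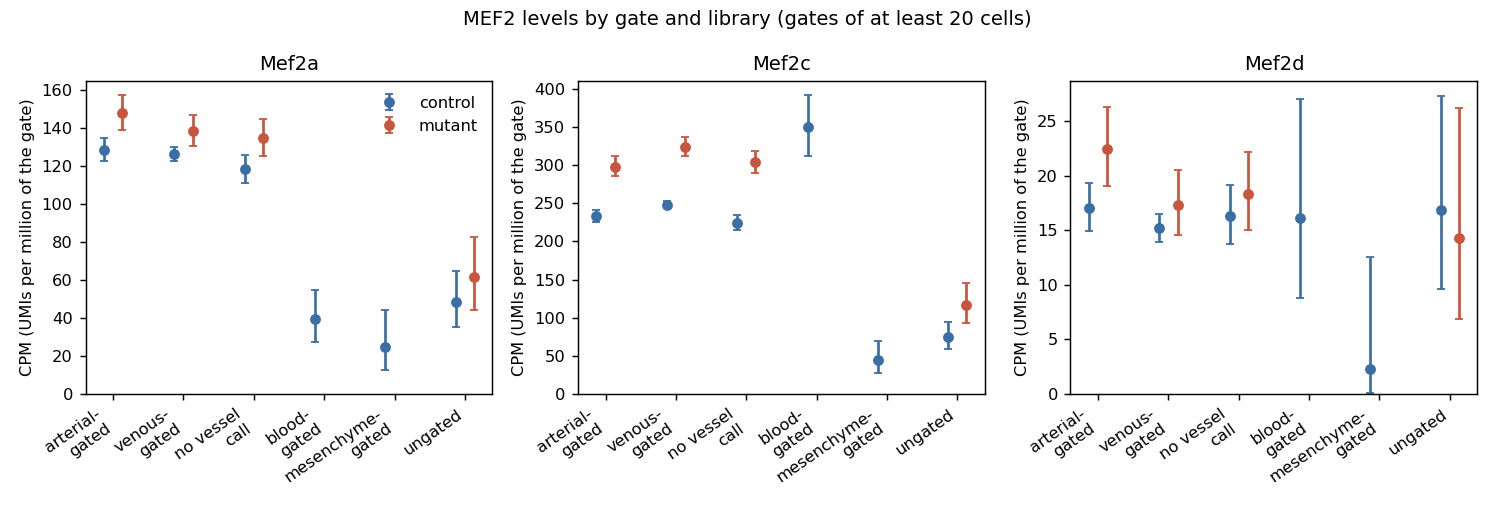
CPM of Mef2a, Mef2c and Mef2d (vertical axes) in 6 gates, with 1 point per library (blue, control; red, mutant) and bars for exact 95% Poisson intervals; a gate with under 20 cells in a library is not drawn for it, and the neural gate is not plotted. Mef2c lies at 225 to 248 CPM in the 3 control vessel gates and at 298 to 324 CPM in the mutant ones, and both Mef2a and Mef2c are lower in mesenchyme-gated and ungated cells.

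Cells outside the endothelial gate separated the members from each other. In 43 blood-gated control cells, called from markers such as Ptprc, Spi1 and Tyrobp, Mef2c stood at 350 CPM (312 to 392), a ratio of 1.45 (1.29 to 1.63) to the endothelial gate of that library. Mef2a stood at 39.2 CPM there (27.1 to 54.8), a ratio of 0.312 (0.216 to 0.437), and Mef2d at 16.1 CPM from 14 UMIs, a ratio of 1.02 (0.554 to 1.72). Blood cells thus carried Mef2c above and Mef2a below the endothelial level. The mutant library held 1 blood-gated cell, which gives no comparison.

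Mesenchyme-gated cells (42 in the control, 10 in the mutant) were low in all 3. In the control Mef2c stood at 45.0 CPM from 20 UMIs, Mef2a at 24.8 CPM from 11 UMIs and Mef2d at 2.25 CPM from 1 UMI. Against the endothelial gate the control ratios were 0.187 for Mef2c (0.114 to 0.289) and 0.197 for Mef2a (0.0985 to 0.353). Of 25 neural-gated control cells, 1 held a Mef2c UMI and 3 a Mef2a UMI. The ungated cells (288 and 283) were shallow, with medians of 1458 and 1735 UMIs, and rich in hemoglobin RNA, at 105113 and 40045 CPM; Mef2c stood there at 74.7 and 117 CPM and Mef2a at 48.4 and 61.3 CPM, in both libraries below the endothelial gate.

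In order, without thinning, control Mef2c ran from blood-gated through venous-gated, arterial-gated and vessel-uncalled cells to ungated, mesenchyme-gated and neural-gated cells. Of these neighbours, arterial-gated and vessel-uncalled cells did not differ beyond counting error (ratio 1.04, 0.981 to 1.10), and the counting intervals overlapped between ungated and mesenchyme-gated and between mesenchyme-gated and neural-gated cells. Gates of under 20 cells are left out of this order. Mef2a ran from the 3 vessel gates, at 118 to 129 CPM, down to ungated cells at 48.4 CPM and to blood-gated, neural-gated and mesenchyme-gated cells at 24.8 to 39.2 CPM, where the counting intervals overlapped.

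At the level of single cells the members were sparse. Control endothelial-gated cells held 0 to 23 Mef2c UMIs with a median of 1, 0 to 13 Mef2a UMIs with a median of 1, and 0 to 4 Mef2d UMIs with a median of 0. Mutant cells held 0 to 17, 0 to 11 and 0 to 4 UMIs with the same medians. Without thinning, 71.3% of control and 70.5% of mutant cells held a Mef2c UMI, 57.5% and 53.4% a Mef2a UMI, and 13.2% and 12.7% a Mef2d UMI. The mutant cells were shallower, with a median of 6073 UMIs in this gate against 7796, so these shares do not compare like with like.

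At an equal depth of 2500 UMIs per cell (5370 control and 2318 mutant cells; 905 and 624 shallower ones left out) the order of the libraries turned. A Mef2c UMI was then found in 43.0% of control cells (41.7 to 44.3) and 51.3% of mutant cells (49.2 to 53.3). For Mef2a the shares were 25.2% (24.0 to 26.4) and 28.9% (27.0 to 30.8), and for Mef2d 4.06% (3.55 to 4.62) and 5.22% (4.35 to 6.21). In both libraries most positive cells held a single UMI, as for Mef2c in 30.6% of control and 33.2% of mutant cells. No gate was known to lack these genes; for scale, Tyrobp, a macrophage gene, was found in 0.112% of thinned control and 0.0863% of thinned mutant endothelial-gated cells.

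Joint detection lay near the product of the single shares, above it for Mef2a with either other member. For Mef2c with Mef2d it lay at the product in the control and below it in the mutant. No interval was taken for these differences. In thinned control cells 11.4% held both Mef2a and Mef2c, where the product is 10.8%; in mutant cells the values were 16.3% and 14.8%. Mef2c and Mef2d were found together in 1.73% of control cells, where the product is 1.74%, and in 2.16% of mutant cells, where it is 2.68%. For Mef2a with Mef2d the values were 1.34% against 1.02% in the control and 2.03% against 1.51% in the mutant. All 3 members were detected in 0.652% of control and 0.949% of mutant cells, and none in 41.6% and 34.2%.

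**Figure D2:**
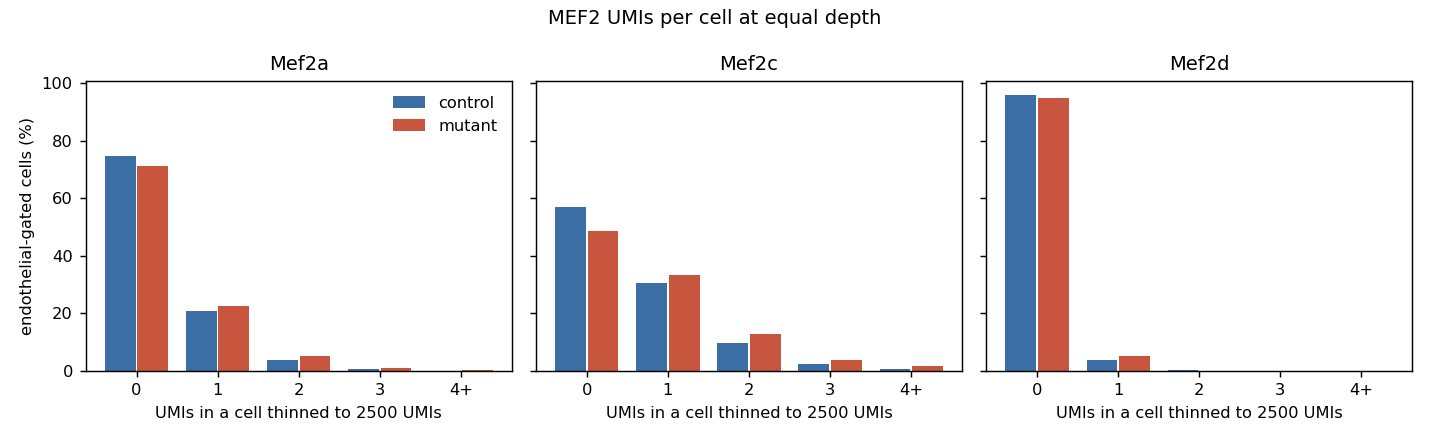
Share of endothelial-gated cells (vertical axis, percent) by the number of UMIs of Mef2a, Mef2c and Mef2d they hold after thinning to 2500 UMIs, with blue bars for the control and red bars for the mutant library. For Mef2c the mutant has fewer cells at 0 UMIs (48.7% against 57.0%) and more at each higher count.

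Mef2a and Mef2d were highest in shallow cells and in cells with a high mitochondrial share, and Mef2c was not. Endothelial-gated cells of each library were split into terciles by total UMIs. In the shallowest tercile Mef2a stood at 178 CPM in control cells and 243 CPM in the mutant, against 118 and 128 CPM in the middle and 120 and 130 CPM in the deepest tercile. Mef2d stood at 26.4 and 47.8 CPM in the shallowest tercile, 14.5 and 15.3 CPM in the middle and 14.7 and 16.7 CPM in the deepest. Mef2c stood at 221, 222 and 253 CPM from the shallowest to the deepest control tercile and at 299, 286 and 322 CPM in the mutant ones, so it was highest in the deepest cells, beyond counting error in the control.

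The mutant to control ratios followed the same split. For Mef2a the ratio was 1.37 (1.23 to 1.52) in the shallowest terciles, 1.08 (0.996 to 1.18) in the middle and 1.08 (1.02 to 1.15) in the deepest. For Mef2d it was 1.81 (1.40 to 2.35), 1.06 (0.823 to 1.35) and 1.13 (0.958 to 1.33). For Mef2c it was 1.35 (1.23 to 1.49), 1.29 (1.22 to 1.37) and 1.27 (1.22 to 1.32). In this split by depth the Mef2d difference was therefore detectable in the shallowest tercile alone of the 3, whereas that of Mef2c was present in each. Median depths of the terciles were 2826, 7797 and 15687 UMIs in the control and 2036, 6076 and 11677 in the mutant.

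The mitochondrial share separated Mef2a and Mef2d from Mef2c. Mef2a stood at 186 CPM in control cells and 238 CPM in the mutant tercile with the highest mitochondrial share, against 113 and 128 CPM in the lowest. Across terciles, lowest first, the mutant to control ratio of Mef2a was 1.13 (1.05 to 1.20), 1.03 (0.958 to 1.11) and 1.28 (1.17 to 1.40). Mef2d stood at 27.3 and 35.1 CPM against 12.5 and 16.6 CPM. Its mutant to control ratio was 1.32 (1.09 to 1.60) in the lowest, 1.09 (0.887 to 1.33) in the middle and 1.29 (1.01 to 1.64) in the highest tercile. Mef2c stood at 240 and 313 CPM in the highest and 242 and 317 CPM in the lowest tercile. These terciles also differed in depth. In the control, 1496 Mef2a UMIs from 2091 cells gave 186 CPM in the highest, and 3187 from 2092 cells gave 113 CPM in the lowest. In the mutant, 677 from 980 cells gave 238 CPM and 1247 from 981 cells gave 128 CPM. The highest tercile thus held fewer UMIs of all genes, and the part of depth in this split was not tested.

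Cell-cycle genes made little difference to the Mef2c ratio. Across terciles of the S-phase list Mef2c ran from 234 to 248 CPM in control cells and from 287 to 320 CPM in the mutant, with mutant to control ratios of 1.22 to 1.33. Across terciles of the G2/M list those ratios were 1.24 to 1.30.

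Early-response genes, which include Fos, Egr1 and Ier2 and which tissue dissociation can raise, moved with Mef2a in the mutant. From the lowest to the highest tercile of this list Mef2a stood at 102, 140 and 174 CPM in the mutant and at 119, 123 and 131 CPM in the control. The mutant to control ratio was 0.861 (0.782 to 0.948), 1.13 (1.05 to 1.22) and 1.33 (1.24 to 1.42) in these terciles. Mef2c stood at 271, 321 and 326 CPM in the mutant and 209, 232 and 264 CPM in the control, with ratios of 1.29, 1.38 and 1.23. The part of dissociation in these values was not tested.

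The hypoxia list (Slc2a1, Bnip3, Ldha, Ndufa4l2 and others), which summed to 1332 CPM in control and 4430 CPM in mutant endothelial-gated cells, did not order Mef2c. In the mutant Mef2c stood at 308, 315 and 300 CPM from the lowest to the highest tercile of this list, and in the control at 246, 240 and 238 CPM. Mef2d had mutant to control ratios of 1.16 (0.940 to 1.42), 1.08 (0.875 to 1.32) and 1.53 (1.23 to 1.89), the last past 1.5-fold. Mef2a stood at 125, 136 and 170 CPM in the mutant and 120, 125 and 131 CPM in the control, so that its ratio ran from 1.04 (0.964 to 1.13) to 1.30 (1.20 to 1.40). The mutant terciles also differed in depth. In the highest, 914 Mef2a UMIs from 980 cells gave 170 CPM, and in the lowest 911 from 981 cells gave 125 CPM. The highest tercile thus held fewer UMIs of all genes, and the part of depth in these values was not tested.

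**Figure D3:**
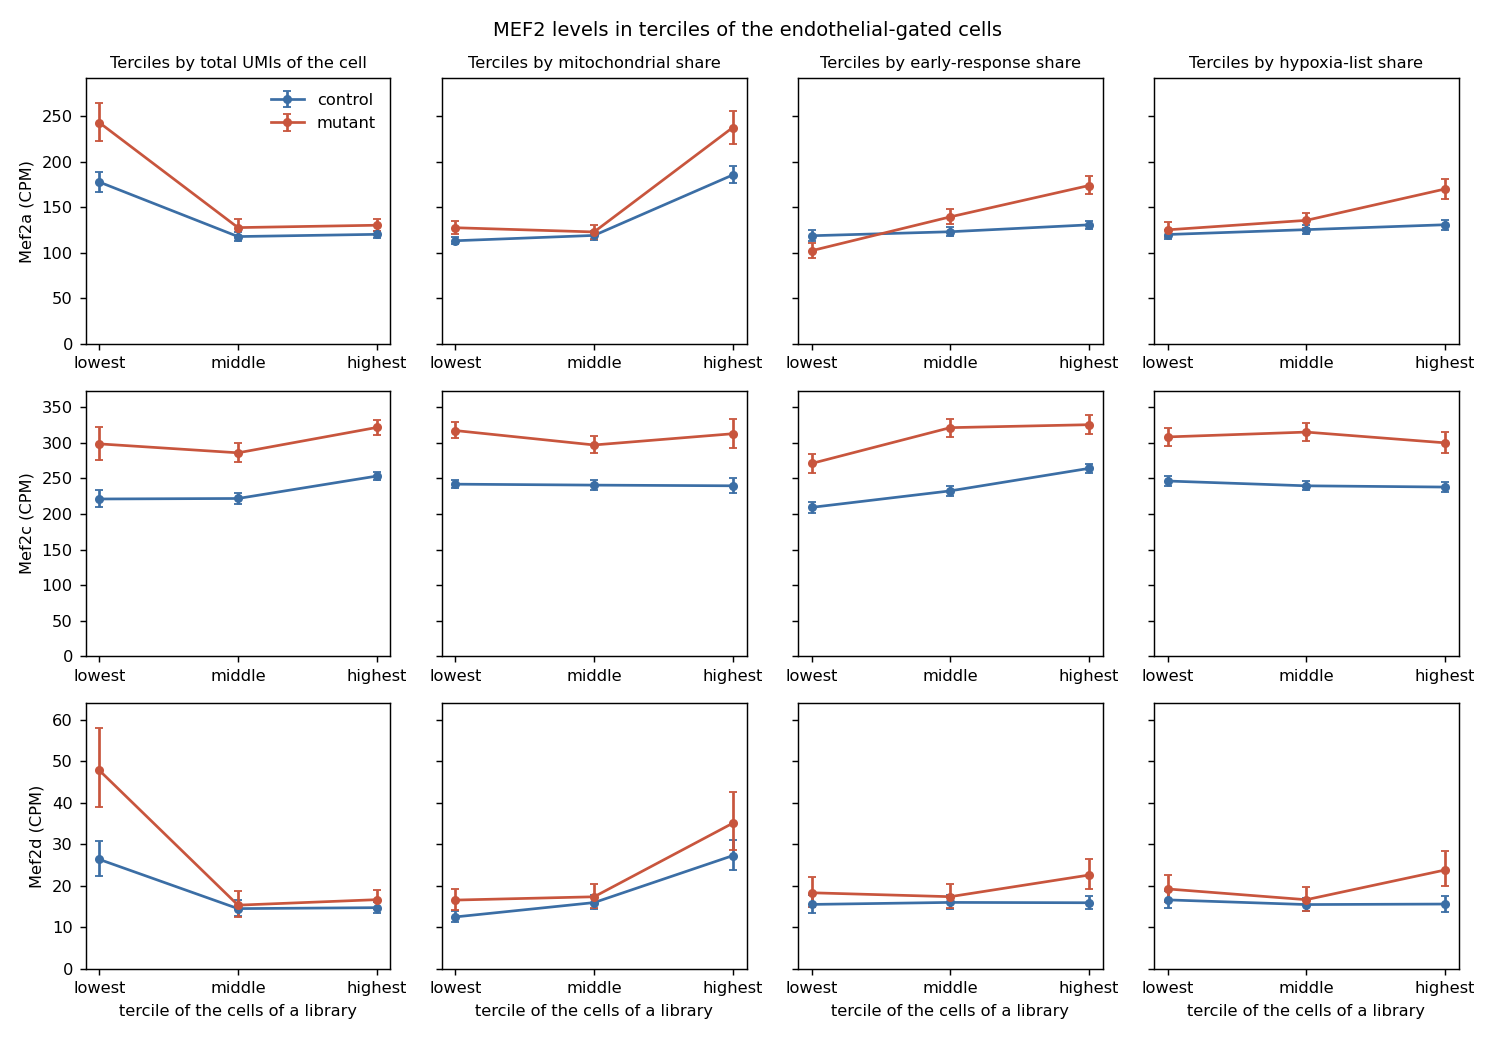
CPM of the 3 MEF2 factors (rows) in terciles of the endothelial-gated cells by total UMIs, mitochondrial share, early-response share and hypoxia-list share (columns), blue for control and red for mutant, with exact 95% Poisson intervals. Mef2a and Mef2d are highest in the shallowest cells and in those with the highest mitochondrial share, and the mutant Mef2c points lie above the control points in every panel.

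Mef2c RNA was also found in endothelial cells without a Klf2 UMI. Its level was lower there than in cells with one, but the counting intervals overlapped in both libraries. Among thinned control cells, Mef2c stood at 248 CPM (235 to 261) where a Klf2 UMI was present (2299 cells). Where none was (3071 cells) it stood at 226 CPM (215 to 237). Among thinned mutant cells it stood at 339 CPM (305 to 377, 414 cells) and 300.2 CPM (285 to 316, 1904 cells). Mef2a stood at 121 and 123 CPM in control cells and at 174 and 142 CPM in the mutant. The mutant level of Mef2c was thus above the control level both in cells with a Klf2 UMI (ratio 1.37, 1.21 to 1.54) and in cells without one (1.33, 1.24 to 1.43). For Mef2d the ratio was 0.762 (0.402 to 1.34) in cells with a Klf2 UMI, from 102 control and 14 mutant UMIs. In cells without one it was 1.43 (1.10 to 1.86). A cell without a Klf2 UMI at this depth may still hold Klf2 RNA. Before thinning 60.8% of control and 29.2% of mutant cells had a Klf2 UMI, and after it 42.8% and 17.9%.

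In endothelial-gated cells with a UMI of Runx1, the transcription factor needed for blood to arise from endothelium, Mef2c stood at 283 CPM in the control (169 cells) and 317 CPM in the mutant (66 cells). Their ratio was 1.12 (0.960 to 1.30). Mef2a stood at 87.6 and 139 CPM, with a ratio of 1.59 (1.24 to 2.01). These cells were deep, with medians of 14891 and 10566 UMIs.

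Endothelial-gated cells with both Acta2 and Tagln, contractile genes of smooth muscle, were the exception for Mef2c. The gate for smooth muscle genes held 12 control and 16 mutant cells, too few for a ratio, so cells with a UMI of both genes were taken after their values were seen: 110 control and 78 mutant cells. They include 11 control and 16 mutant cells of that gate, so the 2 sets are not separate observations. Arterial-gated cells made up 87 of the control and 50 of the mutant cells. Mef2c stood at 200 CPM (175 to 228) in the control and 129 CPM (101 to 161) in the mutant, a ratio of 0.643 (0.488 to 0.840). In those cells Mef2a stood at 91.9 and 155 CPM, with a ratio of 1.68 (1.25 to 2.26), and Mef2d at 20.5 and 43.5 CPM, with a ratio of 2.12 (1.15 to 3.90). The 12 endothelial markers summed to 4008 and 4417 CPM in these cells and the 8 smooth muscle markers to 1206 and 4763 CPM, so the mutant cells carried more smooth muscle RNA; doublets were not removed, and their part in these values was not tested.

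Most kinases that act on MEF2 proteins lay within 1.5-fold. Of 13 listed, 12 had a mean of at least 5 CPM, and 1 was past 1.5-fold lower and 0 past 1.5-fold higher in mutant endothelial-gated cells, beside 19.9% and 12% of all genes; their median log2 ratio was -0.27 beside -0.14 for all genes. Map3k3 stood at 9.24 and 10.8 CPM, with a ratio of 1.17 (0.997 to 1.37), though 3′ counts need not fall in the deleted exons and so do not check the deletion. Map2k5 stood at 18.6 and 22.7 CPM, with a ratio of 1.22 (1.09 to 1.36), and Mapk7 at 10.2 and 8.68 CPM, with a ratio of 0.848 (0.714 to 1.004); reads of Mapk7 may be shared with Mfap4, which overlaps its end on the other strand. In the p38 branch Mapk14, which phosphorylates MEF2A and MEF2C, was the member past the bound, at 16.8 and 9.89 CPM (ratio 0.587, 0.503 to 0.683), and its activators Map2k3 and Map2k6 had ratios of 0.753 and 0.960. Prkd3 and Camk2d, of kinase families that drive class IIa deacetylases out of the nucleus, had ratios of 0.813 (0.738 to 0.895) and 0.748 (0.662 to 0.843). Camk2d differed by gate. Its ratio was 0.454 (0.376 to 0.546) in arterial-gated cells, 0.944 (0.763 to 1.16) in venous-gated cells and 0.887 (0.655 to 1.19) without a vessel call. In arterial-gated cells Camk2d was the 1 kinase of 12 past 1.5-fold lower, and 1 was past it higher, beside 23.1% and 11.7% of all genes. Mapk14 lay inside the bound there, at 0.671 (0.517 to 0.862).

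Among the repressors of MEF2, 1 of 7 measured members was past 1.5-fold higher and 1 past it lower, which is near the shares of 12% and 19.9% over all genes, with a median log2 ratio of -0.02. Hdac7, a class IIa deacetylase prominent in endothelium, had 40.0 and 40.8 CPM (ratio 1.02, 0.943 to 1.11). Hdac4 stood at 7.49 and 10.9 CPM (ratio 1.45, 1.23 to 1.71), and Hdac5, named after its values were seen, at 5.14 and 9.41 CPM (ratio 1.83, 1.52 to 2.20). Hdac9 lay under the filter with 4 control and 16 mutant UMIs, a ratio of 11.3 (3.65 to 46.5). The corepressor subunits Ncor1 and Hdac3 had ratios of 0.881 and 0.837, and Cabin1, which tethers repressors to MEF2, stood at 9.32 and 5.43 CPM (ratio 0.583, 0.471 to 0.715).

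None of the 9 measured genes on the list of coactivators and calcineurin was past 1.5-fold, beside 31.9% of all genes. Their median log2 ratio was -0.13. The acetyltransferases Ep300 and Crebbp had ratios of 1.02 (0.935 to 1.12) and 0.942 (0.868 to 1.02). The calcineurin genes Ppp3ca, Ppp3cb and Ppp3r1, a phosphatase that activates MEF2, had ratios of 0.980, 0.882 and 0.912. Vgll4, a member of this list whose action on MEF2 was not tested, had 0.879 (0.817 to 0.946).

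The known targets did not move as 1 group. Of 14 listed, 11 were measured; 4 were past 1.5-fold lower in the mutant (Klf2, Klf4, Nos3 and Thbd) and 2 higher (Dll4 and Egr1), with a median log2 ratio of -0.37, beside 19.9% lower and 12% higher over all genes. Nos3, the nitric oxide synthase of endothelium, had 24.1 and 7.56 CPM (ratio 0.314, 0.265 to 0.371) and Thbd, thrombomodulin, 7.44 and 4.51 CPM (ratio 0.606, 0.479 to 0.760); both are better known as targets of KLF2 than of MEF2 itself. Dll4, a Notch ligand of arteries and sprouts, is also a marker of the arterial gate. It stood at 19.6 and 37.8 CPM (ratio 1.93, 1.76 to 2.12). In arterial-gated cells Dll4 was inside the bound, at 61.0 and 80.5 CPM (ratio 1.32, 1.18 to 1.47). Its ratio was 2.41 (1.87 to 3.08) in venous-gated cells and 1.84 (1.42 to 2.40) without a vessel call. Venous-gated cells made up 47.4% of the control and 26.3% of the mutant library. Egr1, an early-response gene, stood at 48.0 and 80.6 CPM (ratio 1.68, 1.58 to 1.79). By gate its ratio was 2.53 in arterial-gated cells and 1.39 in venous-gated cells and without a vessel call. Jun, which like Egr1 is also on the early-response list, stood just inside the bound at 247 and 167 CPM (ratio 0.675, 0.650 to 0.700). Klf6 and the small GTPase gene Rhob had ratios of 0.826 and 0.775. Hlx and Nr4a1 had 1.42 (1.26 to 1.60) and 1.13 (1.01 to 1.25). For Nr4a1 the ratio was 1.49 (1.25 to 1.77) in arterial-gated cells, 1.03 (0.873 to 1.22) in venous-gated cells and 0.810 (0.628 to 1.04) without a vessel call.

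The genes with the MEF2 consensus in their window also went both ways: Klf2 and Jun were lower in the mutant, and Mef2a, Hlx and Hdac5 higher. Bhlhe41, which low oxygen also induces, lay under the filter with 17 control and 190 mutant UMIs, a ratio of 31.6 (19.2 to 55.4).

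**Figure D4:**
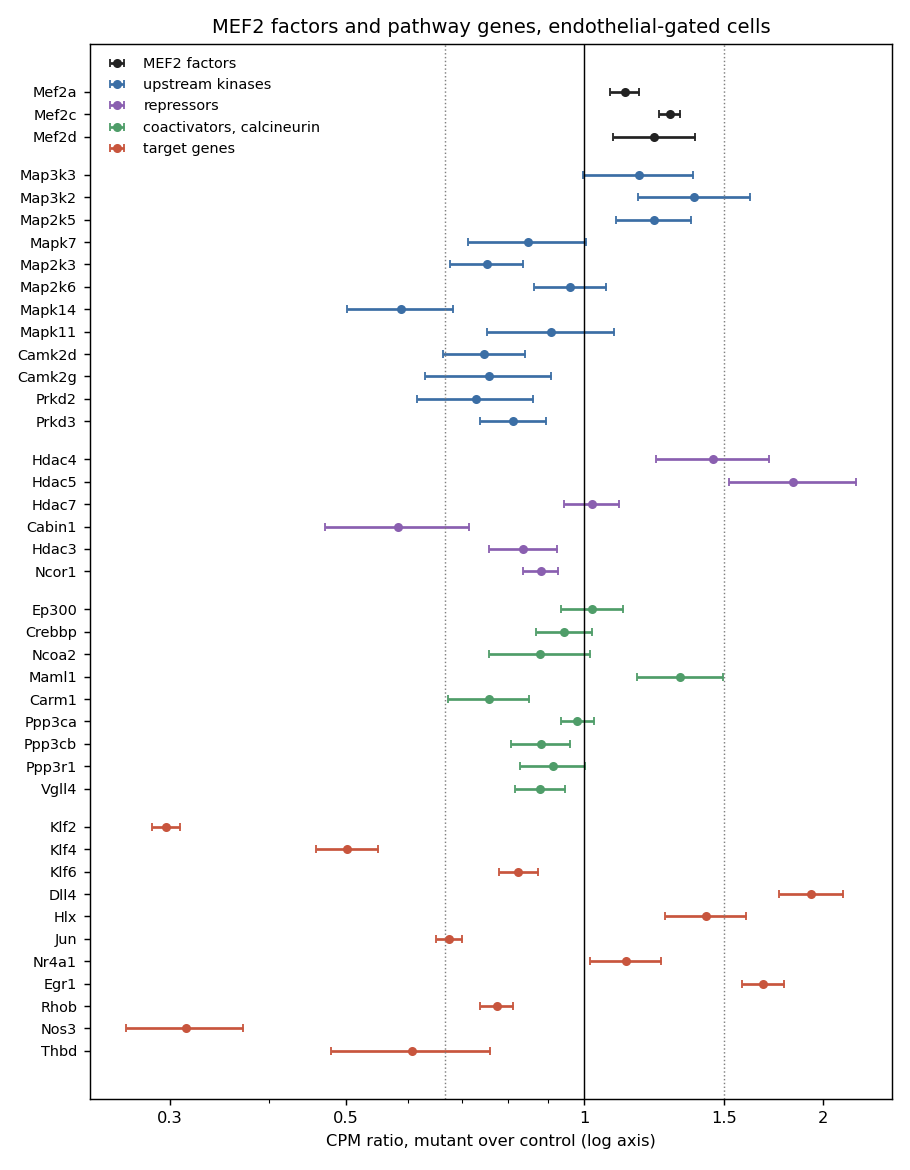
CPM ratio of mutant over control (log axis) in endothelial-gated cells for the MEF2 factors and measured members of 4 pathway lists, leaving out 1 repressor, with exact 95% intervals for counting error; the solid line marks 1 and the dotted lines 1.5-fold in either direction. The MEF2 factors sit between 1.12 and 1.28, while targets run from 0.297 for Klf2 to 1.93 for Dll4.

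Mef2a and Mef2c had like patterns over 8 groups (3 vessel gates and ungated cells in each library), with a Pearson correlation of 0.985 of log2(CPM + 1); with Mef2d the correlations were 0.493 for Mef2a and 0.458 for Mef2c. The groups share 2 libraries, and the low ungated groups weigh most in these values. Of 4606 genes with a mean of at least 20 CPM, those most like Mef2a were Tacc1 (0.997), Tiprl, Hmcn1 and Pde4d, and those most like Mef2c were Sgol2a (0.992), Tiprl, Mef2a and Foxo1. Those most like Mef2d were Supt20 (0.980), Tmx2, Ppme1 and Kif2a.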

How the data were processed

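Droplet 3′ single-cell RNA (version 3 chemistry, per the labels) was processed with Cell Ranger (no version given) against mm10, per the submitters' processing notes; annotation, cell filter and strand setting are not given in any source used here. The authors deposited raw UMI counts of 27998 genes in 9917 cells. The deposited cell table gives genotype words, which set the groups, totals as counts, a mitochondrial fraction, and a size factor, a ratio that was not used.

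The 3 members and all lists were chosen with earlier results of these data known. Gates needed 1 UMI per detected marker: other classes, at least 3 of their markers and more than endothelial ones; endothelial, at least 4; arterial or venous, at least 2 and the larger UMI sum. No doublets or free RNA were removed. UMIs were summed per gate and library as CPM. Intervals (95%) are exact Poisson for a level, conditional binomial for a ratio and Clopper-Pearson for a share (scipy 1.17.1, Python 3.11.15). For log2 ratios 0.5 UMI was added per sum. Ratios between libraries needed 50 cells per library and 20 UMIs; those between gates of a library did not. Named genes were the members, Map3k3, Mapk7, Klf2 and Klf4, the 6 highest by mean CPM per list and the 4 most alike per member; others are Hdac5, Hdac9, Nos3, Thbd, Dll4, Hlx, Nr4a1 and Bhlhe41, chosen after their values were seen. A gene that the rule takes is not reported here. The ratio step was tested on simulated data. Alternatives changed the scaling (among them TMM factors, edgeR 4.0.16), gates, depth, cell cycle, sex, weighting, filter and fold. Promoter windows are RefSeq's.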

Additional observations from a re-analysis of the deposited data

Results flagged for a closer look

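The ratio of mutant to control Mef2a lay on opposite sides of 1 across terciles of the early-response list in endothelial-gated cells, at 0.861 in the lowest, 1.13 in the middle and 1.33 in the highest tercile. The ratio of Mef2c lay at 0.643 in endothelial-gated cells with Acta2 and Tagln UMIs, against 1.28 in all endothelial-gated cells. With 1 library per group these differences were not tested.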

How the results depend on the processing

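No paired analysis was possible because each group had 1 library. Of 159 recomputed MEF2 ratios, 107 stayed within the counting interval of the value reported, 49 left it on the same side of 1 and 3 crossed 1; the highest was 1.86. The cause of each shift was not tested. The order below is Mef2a, Mef2c, Mef2d where several are given. With TMM factors Mef2c was 1.34 in the endothelial gate, Mef2a and Mef2c were 1.26 and 1.40 in the arterial gate and 1.18 and 1.32 in all cells. With median-of-ratios factors Mef2a and Mef2c were 1.19 and 1.35 in the endothelial gate, 1.26 and 1.40 in the arterial gate and 1.20 and 1.34 in all cells. With mitochondrial, ribosomal-protein and hemoglobin genes out of the totals they were 1.22 and 1.40 in the endothelial, 1.26 and 1.40 in the arterial and 1.19 and 1.42 in the venous gate and 1.23 and 1.37 in all cells, and Mef2c was 1.48 without a vessel call. In thinned cells Mef2a and Mef2c were 1.25 and 1.32 in the endothelial gate, the members were 1.52, 1.46 and 1.86 in the arterial and 1.54, 1.22 and 0.885 in the venous gate, and Mef2a was 1.20 in all cells; shares of cells with a UMI went to 25.2% and 28.9%, 43.0% and 51.3%, and 4.06% and 5.22% (control and mutant). In cells with cell-cycle shares at or below the median Mef2a and Mef2d were 1.23 and 1.40 in the endothelial gate and 1.24 and 1.40 in all cells, and Mef2a was 1.19 in the venous gate and 1.26 without a vessel call. Against control cells with Xist and no Y-linked UMI Mef2a was 1.08 in the endothelial gate and in all cells; without a vessel call Mef2a was 0.998 and Mef2c 1.22. As a mean over cells the members were 1.25, 1.33 and 1.55 in the endothelial gate and 1.22, 1.30 and 1.52 in all cells; Mef2a and Mef2c were 1.29 and 1.35 in the arterial gate, Mef2a and Mef2d 1.23 and 1.63 in the venous gate, and Mef2d 1.69 without a vessel call. With looser gates Mef2c was 1.16 and Mef2d 0.931 without a vessel call. Members past the fold bound changed in number: kinases, 1 higher without the technical genes in the totals, 1 higher and 3 lower in thinned cells, and 0 lower at 20 CPM or past 2-fold; repressors, 2 higher under all 3 scalings, in thinned cells and with no filter, 0 lower in thinned cells, and 0 either way at 20 CPM or past 2-fold; coactivators, 1 higher in thinned cells and 1 each way with no filter; targets, 4 higher with median-of-ratios factors and without the technical genes, 2 lower at 20 CPM, and 0 higher and 2 lower past 2-fold. Leaving out cells above a mitochondrial fraction of 0.1, chosen after seeing the data, and the deepest 1% of cells kept all 15 ratios each within their intervals. Of the MEF2 factors, 0 were past 1.5-fold by summed UMIs in the endothelial, arterial and venous gates, without a vessel call or in all cells; 3 of the thinned ratios above and 4 of the means over cells were.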
